A study of Mus musculus with 8 samples.

Results

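The genes of major histocompatibility complex (MHC) presentation were examined in RNA from regulatory T cells (Tregs) that carried or lacked the TNF receptor TNFR2 on their surface. A listed set of 10 genes was taken, 5 of the class II pathway (*Cd74*, *H2-Aa*, *H2-Ab1*, *H2-Eb1* and *H2-DMa*) and 5 of the class I pathway (*B2m*, *H2-K1*, *H2-D1*, *Tap1* and *Nlrc5*), out of 20172 genes measured. All 10 were found in the data by their Ensembl identifiers.

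Tregs were sorted from the spleens of female *Foxp3* CreYFP mice as CD4 T cells positive for yellow fluorescent protein (YFP). All groups share this allele, in which Foxp3 drives both YFP and Cre, so that sorted cells had *Foxp3* activity at the time of the sort. Mice were 8 to 12 weeks old. TNFR2+ Tregs and TNFR2- Tregs were each represented by 4 libraries (replicates 1 to 4), each made from 100000 cells, and neither group received a treatment. Nothing in the labels says whether the 4 libraries of a group came from separate mice, so p-values here measure the spread between libraries, which may be technical.

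MHC class I molecules consist of a polymorphic heavy chain (H2-K1 or H2-D1 here) and the invariant light chain beta-2 microglobulin (B2m). They are loaded in the endoplasmic reticulum with peptides from the cytosol, which the Tap1/Tap2 transporter brings in, and they are displayed by nearly every nucleated cell. Nlrc5 is the transactivator of the class I genes. MHC class II molecules are alpha and beta chain pairs (H2-Aa with H2-Ab1, and an E alpha chain with H2-Eb1) that travel with the invariant chain Cd74 to endosomes, where H2-DM exchanges the remnant of Cd74 for peptides from taken-up proteins. They belong to B cells, dendritic cells, macrophages and thymic epithelium, in which Ciita is their transactivator, and resting mouse T cells are known for making little of them. Ciita and Nlrc5 both act through the same proximal promoter module, built of the W/S, X1, X2 and Y boxes and bound by the RFX complex, CREB family factors and NF-Y.

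For 2 class II and 2 class I members the stretch where this module is known to lie is shown, because their levels were far apart in the same libraries. The 130 bases before the RefSeq transcription start (GRCm38.p6) are printed on the strand of the gene. Capitals mark the Y box core GATTGG and the X2 box core TGACG, searched on both strands, so that CCAATC and CGTCA are their reverse forms.
*H2-Aa* (chr17:34287824-34287953, minus strand): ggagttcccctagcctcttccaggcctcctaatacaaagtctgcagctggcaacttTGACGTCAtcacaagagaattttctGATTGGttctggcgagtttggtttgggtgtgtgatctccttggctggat
*H2-Eb1* (chr17:34305737-34305866, plus strand): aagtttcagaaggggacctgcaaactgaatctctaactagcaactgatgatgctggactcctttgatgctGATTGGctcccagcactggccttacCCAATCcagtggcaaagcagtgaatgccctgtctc
*B2m* (chr2:122147557-122147686, plus strand): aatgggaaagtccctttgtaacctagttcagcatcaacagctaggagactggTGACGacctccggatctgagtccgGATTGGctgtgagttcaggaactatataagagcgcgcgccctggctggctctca
*H2-K1* (chr17:34000334-34000463, minus strand): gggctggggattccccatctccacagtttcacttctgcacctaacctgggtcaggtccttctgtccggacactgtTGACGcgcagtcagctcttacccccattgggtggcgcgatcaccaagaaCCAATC

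Promoter windows were used for 7 of the 10 members (9 windows, since *H2-K1* and *H2-DMa* have more than 1 start). Windows on chromosome 18, which holds *Cd74*, were left out of the member windows, so no promoter of *Cd74* was searched. The Y box core lay in the 130 bases before a start of 5 of these genes (*H2-Aa*, *H2-Eb1*, *B2m*, *H2-K1* and *H2-D1*). By window it was in 5 of the 9, against 10.12% of all 32851 promoter windows of the same length. The X2 core was found in 5 of the genes (*H2-Aa*, *B2m*, *H2-K1*, *H2-D1* and *Tap1*). By window it was in 6 of the 9, against 12.24% of all windows. In *H2-Aa*, the X2 core on the gene strand and its reverse form overlap in a palindrome. In both class II chains the Y core lay on the gene strand, from -49 in *H2-Aa* and from -60 in *H2-Eb1* counted from the start, and in *B2m* it began at -54. In *H2-D1* it lay in reverse from -53, and in *H2-K1* in reverse from -6 before the start used above and not in the window of the other start. For interferon response elements a strict core was searched on either strand (GAAA, any 2 bases and GAAA again). It was found in 0 of the 9 windows and in 1.352% of all. Elements that depart from this core would be missed, so these windows may still hold such elements. Only exact matches to the Y and X2 cores were marked, so boxes that depart from them would be missed. In the printed *H2-K1* window, cattgg after the X2 core differs from the Y core by 1 letter and was not marked. These matches describe letters only and were not measured as binding sites.

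Before the members, the sort and the labelled cell type were checked. *Tnfrsf1b*, which encodes TNFR2, ranged from 1840 to 3148 normalized counts in TNFR2+ libraries, above the 1177 to 1563 of TNFR2- libraries. Normalized counts are gene counts divided by a size factor per library. Their total was 9576920 to 11492800 in a library, and a single read was estimated, from the spacing of low values, at 0.852 to 1.15 of them. *Foxp3*, the factor that defines Tregs, ranged from 2812 to 3313 and from 3292 to 4033, and the T cell genes *Cd4* and *Cd3e* were abundant in all 8 libraries.

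In TNFR2+ Tregs, the invariant chain *Cd74* was more abundant than in TNFR2- Tregs, the class II chains *H2-Aa* and *H2-Eb1* were found at low levels above those of every TNFR2- library, *H2-Ab1* overlapped between the groups, and no class I gene passed the test. The chains were too low for the main test. Differences were tested with limma on log2(normalized count + 1) for the 13990 genes with a mean of at least 10, and fold changes are on that scale. Of the 10 members, 7 passed this filter, and 1 of them, *Cd74*, had an adjusted p under 0.05, against 7.91% of all genes tested (4.52% higher and 3.39% lower in TNFR2+ Tregs). The groups did not overlap in 3 of the 10 members, all of class II, whereas 11.5% of all genes in the data had groups that did not overlap.

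**Figure D1:**
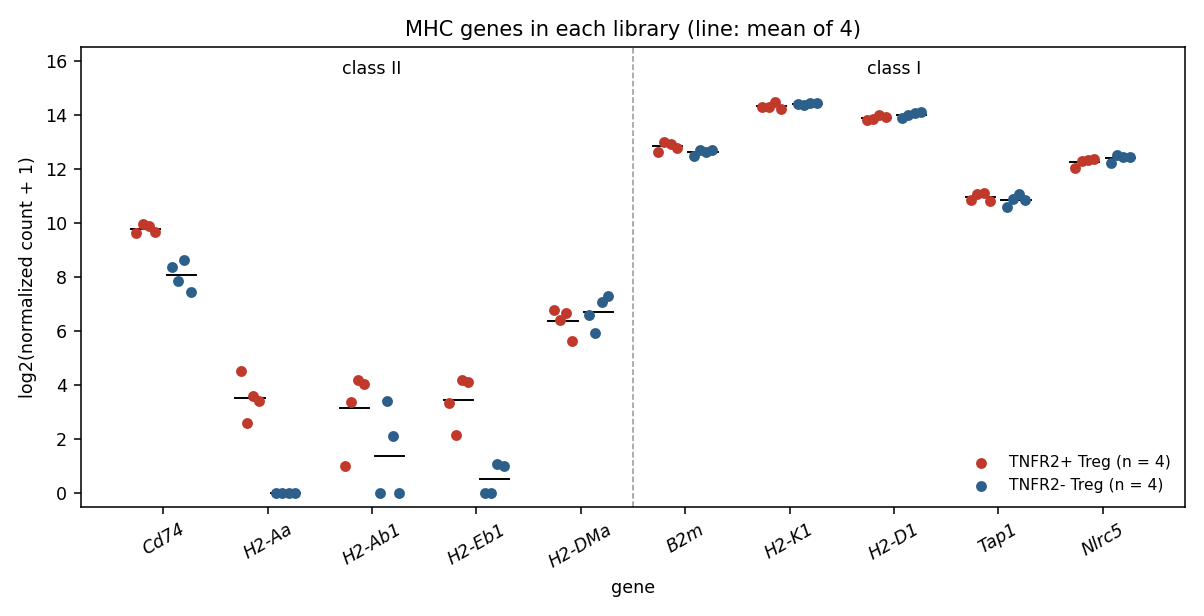
Each point is the log2(normalized count + 1) of a gene in a library, with TNFR2+ Tregs in red, TNFR2- Tregs in blue (4 libraries each) and a line at the mean of a group. The groups are apart in *Cd74*, *H2-Aa* and *H2-Eb1*, and they overlap in *H2-Ab1*, *H2-DMa* and the 5 class I members.

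*Cd74*, on chromosome 18, encodes the invariant chain, which blocks the groove of new class II molecules and also serves at the cell surface as a receptor for the cytokine MIF. Replicates 1 to 4 of the TNFR2+ Tregs had 797, 994, 939 and 819 normalized counts, and those of the TNFR2- Tregs had 330, 228, 391 and 172. Every TNFR2+ library was above every TNFR2- library, and the TNFR2- libraries varied more in proportion to their mean. The means were 887 ± 94.6 and 280 ± 98.5 (SD, n = 4 each), a log2 fold change of 1.72 (SE 0.24, 95% interval 1.21 to 2.23, limma, adjusted p = 9.12e-04), which is 3.30-fold on the log2(value + 1) scale. The exact two-sided permutation test over 70 relabellings gave p = 0.0286, the smallest that 4 against 4 libraries allow. With any single library left out, the log2 fold change stayed between 1.51 and 1.91.

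The 3 chains of the class II molecules themselves were near the limit of detection, and none of them reached the mean of 10 needed to be tested. *H2-Aa* (chr17:34282744-34287823, minus strand), the alpha chain of I-A, measured 21.96, 5.12, 11.3 and 9.56 normalized counts in TNFR2+ Tregs and 0 in each TNFR2- library. *H2-Eb1* (chr17:34305867-34316674, plus strand), the beta chain of I-E, measured 9.07, 3.45, 17.3 and 16.4 in TNFR2+ Tregs, and 0, 0, 1.14 and 1.02 in TNFR2- Tregs. *H2-Ab1* (chr17:34257689-34269419, plus strand), the beta chain of I-A, measured 1.00, 9.48, 17.3 and 15.4, and 0, 9.57, 3.39 and 0. The groups were apart in *H2-Aa* and *H2-Eb1* and overlapped in *H2-Ab1*, whose TNFR2+ replicate 1 was at the estimated value of a single read. The 4 TNFR2+ values of *H2-Aa* stand for an estimated 6 to 22 reads, so counting error is large beside them. Without the filter, limma gave adjusted p = 0.0237 for *H2-Aa*, 0.0750 for *H2-Eb1* and 0.429 for *H2-Ab1*, in a fit that called 5.51% of 20172 genes. The exact permutation p was 0.0286 for *H2-Aa* and *H2-Eb1*, and 0.2 for *H2-Ab1*.

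*H2-DMa* (chr17:34119541-34139101, plus strand), the alpha chain of the peptide exchanger H2-DM, did not follow *Cd74*. It measured 110, 85.0, 101 and 48.1 normalized counts in TNFR2+ Tregs, and 94.9, 59.9, 135 and 155 in TNFR2- Tregs. The groups overlapped, with a log2 fold change of -0.34 (SE 0.38, 95% interval -1.17 to 0.48, limma, adjusted p = 0.647). Its annotated exons share 360 bases with those of *Brd2* on the opposite strand, and whether counting used strand is not given in the sources used here.

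The class I members were far more abundant, and 0 of the 5 had an adjusted or an unadjusted p under 0.05 in limma. *H2-K1* (chr17:33996017-34000347, minus strand), a classical heavy chain, measured 20021, 20226, 22875 and 18954 normalized counts in TNFR2+ Tregs, and 21744, 20996, 21978 and 22160 in TNFR2- Tregs, and the groups overlapped. Its log2 fold change was -0.09 (SE 0.09, 95% interval -0.27 to 0.10, limma, adjusted p = 0.610). *H2-K1* ranked 21 of 20172 genes by mean normalized count, and 7 of the 13990 genes tested had a smaller standard error. *H2-D1* (chr17:35262730-35267499, plus strand), the other classical heavy chain, measured 14240, 14945, 16529 and 15525, and 15221, 16150, 17183 and 17761. It gave -0.11 (SE 0.09, 95% interval -0.31 to 0.08, limma, adjusted p = 0.496), again with overlapping groups.

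*B2m* (chr2:122147686-122153083, plus strand), the shared light chain, measured 6316, 8136, 7873 and 7001 normalized counts in TNFR2+ Tregs, and 5652, 6642, 6393 and 6637 in TNFR2- Tregs. TNFR2+ replicate 1 lay within the range of the TNFR2- libraries and the other 3 above it. The log2 fold change was 0.21 (SE 0.11, 95% interval -0.03 to 0.44, limma, adjusted p = 0.277). Taken gene by gene, the 95% intervals of *B2m*, *H2-K1* and *H2-D1* lay between a fold of 0.807 and 1.36 in TNFR2+ over TNFR2- Tregs. No joint interval was computed.

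*Tap1* (chr17:34187553-34197225, plus strand), a subunit of the peptide transporter, ranged from 1785 to 2190 normalized counts in TNFR2+ libraries and from 1555 to 2171 in TNFR2- libraries, and its log2 fold change was 0.11 (SE 0.13, limma, adjusted p = 0.686). *Nlrc5* (chr8:94434356-94527272, plus strand), the class I transactivator, ranged from 4231 to 5240 and from 4760 to 5842, and its log2 fold change was -0.15 (SE 0.11, limma, adjusted p = 0.460). Both genes overlapped between the groups, and the median over the 5 class I members was -0.09, beside -0.01 over all genes tested. *Tap1* shares 212 exonic bases with *Psmb9* on the opposite strand.

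Class II and class I members were then compared within libraries. A value of 0 leaves the pseudocount to set the ratio, as for *H2-Ab1* in TNFR2- replicates 1 and 4. On the log2 scale, *H2-Ab1* minus *H2-K1* measured -13.29, -10.91, -10.29 and -10.17 in TNFR2+ Tregs, and -14.41, -10.96, -12.29 and -14.44 in TNFR2- Tregs. The groups overlapped, and the difference of 1.86 between their means was not past the spread (exact two-sided permutation test, p = 0.171). It was 2.28 with a pseudocount of 0.5 and 1.01 with a pseudocount of 5. *Cd74* minus *B2m*, given as a description, was -3.09 to -2.98 in TNFR2+ libraries and -5.26 to -4.03 in TNFR2- libraries. The SD of this log2 difference was 0.05 in TNFR2+ and 0.60 in TNFR2- Tregs.

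Levels of different genes were compared per kilobase of the longest annotated coding transcript. *H2-K1* was highest, between 11707 and 14129 normalized counts per kilobase over the 8 libraries. It was followed by *B2m* (6572 to 9461) and *H2-D1* (6774 to 8450), whose ranges overlapped. *Tap1* (526 to 741) and *Nlrc5* (558 to 771) came next and overlapped each other, and *Cd74* in TNFR2+ Tregs (565 to 705) lay in the same range. In TNFR2- Tregs, *Cd74* (122 to 278) was below both. *H2-DMa* (24.01 to 77.2) was lower, and the 3 class II chains, at most 19.5 per kilobase, were the lowest and overlapped. Summed over *H2-Aa*, *H2-Ab1* and *H2-Eb1*, the chains reached 25.7, 14.4, 34.7 and 31.1 normalized counts per kilobase in TNFR2+ Tregs, and 0, 7.90, 3.47 and 0.611 in TNFR2- Tregs. In TNFR2+ Tregs, *Cd74* exceeded that sum by a factor of 21.96, 48.8, 19.2 and 18.7 in replicates 1 to 4. In TNFR2- Tregs the factor was 20.5, 79.9 and 200 in replicates 2 to 4, over the low chain sums above. TNFR2- replicate 1, with chains at 0, gave none. The excess of *Cd74* over the chains was thus present in both groups.

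**Figure D2:**
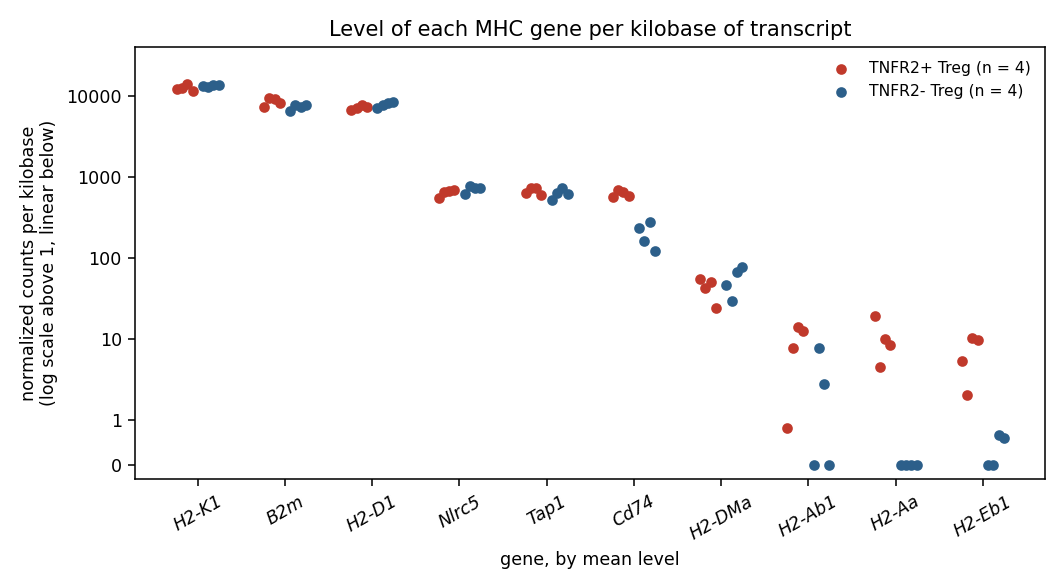
Normalized counts per kilobase of each member in each library, on an axis that is logarithmic above 1 and linear below, with TNFR2+ Tregs in red and TNFR2- Tregs in blue (4 libraries each) and genes ordered by mean level. *H2-K1*, *B2m* and *H2-D1* lie between 6572 and 14129, whereas the 3 class II chains lie between 0 and 19.5.

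The wider class II pathway was examined with a list of 16 further genes of class II chains and loading, of which 12 were in the data and 10 were tested. Rises passed the test in 3 (*Cd82*, *Ctsb* and *H2-Oa*) and a fall in 1 (*H2-Ob*), and 7 had an unadjusted p under 0.05 (5 higher and 2 lower, limma), beside 12.3% of all genes tested higher and 10.7% lower at that threshold. The median log2 fold change was 0.19. *Cd82*, a tetraspanin found in class II compartments and in many other membranes, reached 2394 to 4024 normalized counts in TNFR2+ libraries against 979 to 1681 in TNFR2- libraries (log2 fold change 1.25, SE 0.18, limma, adjusted p = 0.00123). *Ctsb*, the lysosomal protease cathepsin B, reached 1297 to 1658 against 648 to 883 (1.02, SE 0.14, limma, adjusted p = 9.87e-04). Both are used well beyond antigen presentation, and they kept an adjusted p under 0.05 in all 15 alternative fits.

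H2-Oa and H2-Ob are the alpha and beta chains of H2-DO, which restrains H2-DM, and they moved in opposite directions. *H2-Oa* measured 69.6, 96.5, 171 and 108 normalized counts in TNFR2+ Tregs, and 29.3, 32.8, 49.8 and 40.8 in TNFR2- Tregs (1.47, SE 0.38, limma, adjusted p = 0.0309). *H2-Ob* measured 62.4, 97.0, 113 and 101, and 129, 207, 205 and 367 (-1.20, SE 0.33, limma, adjusted p = 0.0422). Neither gene's groups overlapped, but with alternative settings *H2-Oa* passed in 9 and *H2-Ob* in 7 of 15 fits. *H2-Oa* shares 321 exonic bases with the antisense gene *BC051537*. *H2-DMb2*, a beta chain of H2-DM, gave 0.01 (SE 0.30, limma, adjusted p = 0.988). *Ciita*, the class II transactivator, was at most 20.3 normalized counts in TNFR2+ Tregs and at most 19.3 in TNFR2- Tregs, was listed at 0 in 1 library of each group, and was not tested because its mean was below 10.

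Among 24 nonclassical class I and class I-like heavy chains, 19 were in the data, 14 were tested and none passed over all genes, whereas 2 had an unadjusted p under 0.05 (both lower in TNFR2+ Tregs, limma), beside the 10.7% of all genes. The median log2 fold change was -0.12. The most abundant per kilobase were *H2-Q7* (8759 to 12657 normalized counts in TNFR2+ and 10115 to 11470 in TNFR2- Tregs), *H2-Q4* (6500 to 7350 and 8216 to 8834) and *H2-Q6* (7410 to 9381 and 7224 to 7755). The groups were apart only in *H2-Q4* of these 3, with a log2 fold change of -0.27 (SE 0.09, limma, adjusted p = 0.0895). Aligned parts of the *H2-K1* and *H2-D1* transcripts were 83.5% to 91.6% identical to each other and to 5 of these related chains, so reads may have been shared among them and the split between them is uncertain.

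In the list of 16 genes of class I peptide supply and loading, all 16 were tested and none passed, whereas 4 had an unadjusted p under 0.05, all higher in TNFR2+ Tregs (limma), beside the 12.3% of all genes, and the median log2 fold change was 0.20. The most abundant per kilobase were *Psme1*, an activator subunit of the proteasome (0.20, SE 0.16, limma, adjusted p = 0.502), and the endoplasmic reticulum chaperones *Calr* (0.19, SE 0.10, limma, adjusted p = 0.296) and *Pdia3* (0.25, SE 0.11, limma, adjusted p = 0.178). Of these, the groups were apart in *Pdia3* alone, 2696 to 3106 against 2239 to 2604 normalized counts.

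Regulators of MHC genes were followed with a list of 21 genes, of which 20 were in the data and 19 were tested. Of these, 2 rose and 3 fell, beside 4.52% of all genes tested higher and 3.39% lower. An unadjusted p under 0.05 was found in 6 (2 higher and 4 lower, limma), beside 12.3% of all genes tested higher and 10.7% lower. *Ifngr2*, a chain of the interferon gamma receptor, had 172 to 297 normalized counts in TNFR2+ libraries against 461 to 628 in TNFR2- libraries, and fell by 1.17 on the log2 scale (SE 0.21, limma, adjusted p = 0.00444). *Jak1*, a kinase of interferon and many other cytokine receptors, fell by 0.56 (SE 0.11, limma, adjusted p = 0.00664), and *Irf1*, an interferon-induced factor that acts on class I promoters, fell by 0.57 (SE 0.13, limma, adjusted p = 0.0194). *Jak2* rose by 0.54 (SE 0.13) and *Nfkb1*, an NF-kB subunit, by 0.42 (SE 0.11), both with an adjusted p of 0.0250 in limma. Of 15 alternative fits, *Ifngr2* passed in 15, *Jak1* in 14, *Irf1* in 13, *Nfkb1* in 10 and *Jak2* in 9. The RFX genes that hold the promoter module together did not pass, with log2 fold changes of -0.10 for *Rfx5*, -0.35 for *Rfxank* and 0.03 for *Rfxap* (limma, adjusted p at least 0.368 for these 3).

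**Figure D3:**
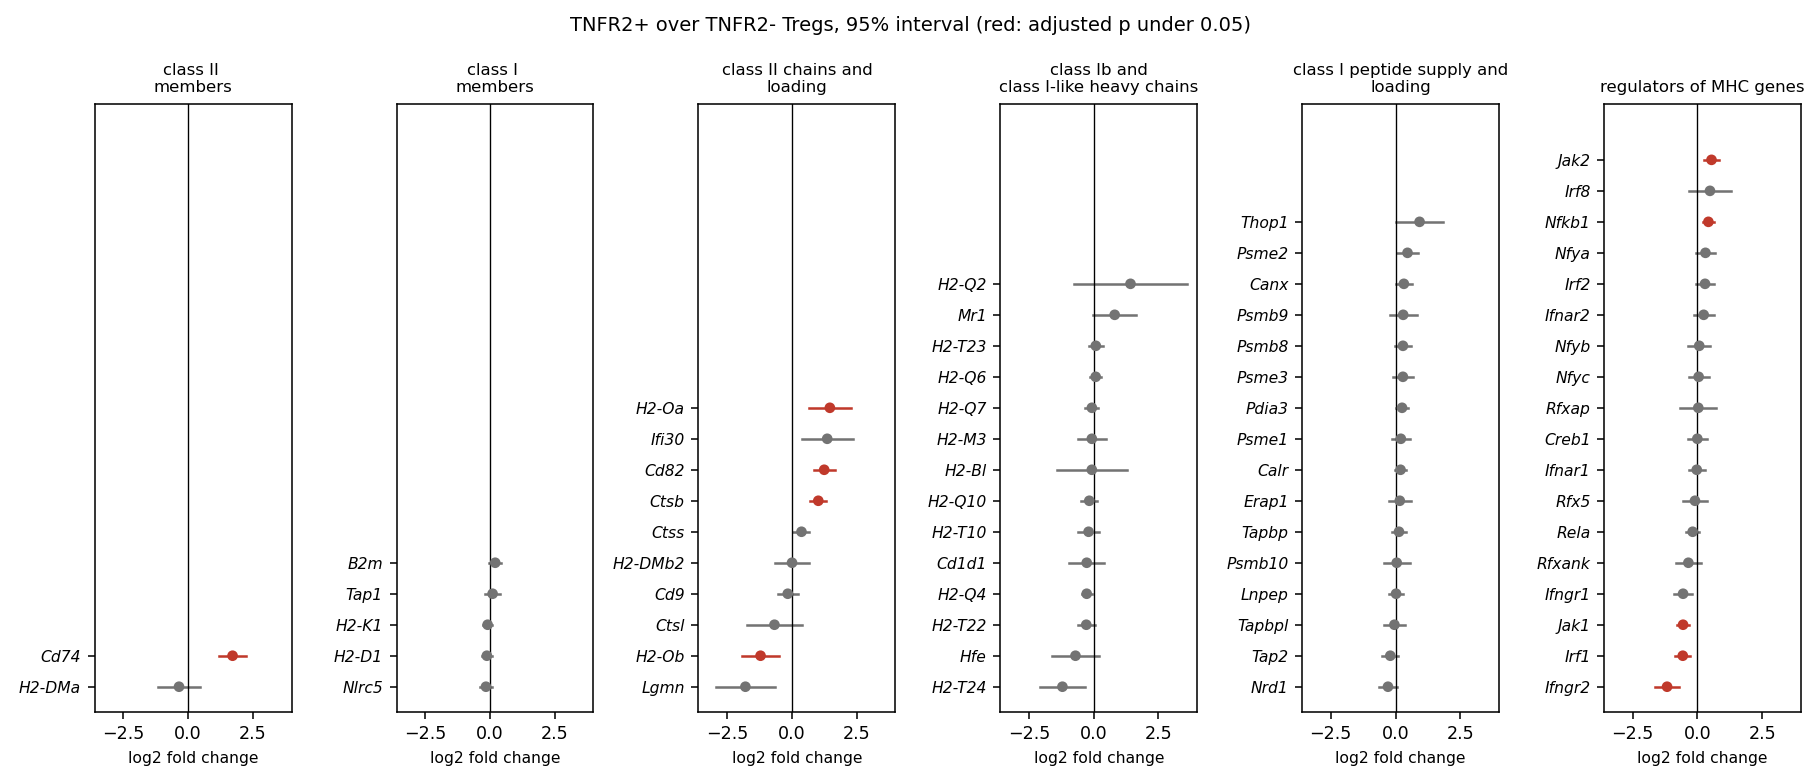
Log2 fold changes of TNFR2+ over TNFR2- Tregs with 95% intervals for the tested members and all but 1 of the tested genes of the 4 pathway lists, red where the adjusted p was under 0.05. *Cd74* is the only red member, the class I members lie within 0.21 of 0, and the red genes of the lists are *H2-Oa*, *Cd82*, *Ctsb*, *H2-Ob*, *Jak2*, *Nfkb1*, *Jak1*, *Irf1* and *Ifngr2*.

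Markers of cells that make class II were measured beside these results, since in bulk RNA fewer cells of a type and less RNA per cell cannot be told apart. Counts of markers that passed the test, here and below, stand beside 4.52% of all genes tested higher and 3.39% lower. Defining B cell markers are given first, for the 4 that were analysed. *Ms4a1* (CD20) had 45.0 to 79.9 normalized counts in TNFR2+ libraries and 19.6 to 99.4 in TNFR2- libraries, and *Cd79b* had 15.3 to 64.6 and 2.25 to 35.1. *Cd79a* was at most 2.90 and 6.10, and *Pax5* at most 9.68 and 41.5, each listed at 0 in 1 library of TNFR2+ Tregs, and *Cd79a* in 1 of TNFR2- Tregs. The 4 together gave 82.5 to 119 in TNFR2+ libraries and 25.0 to 173 in TNFR2- libraries, so these groups overlapped where those of *Cd74* did not. In replicates 1 to 4 the sums were 111, 96.6, 82.5 and 119 in TNFR2+ Tregs, and 82.9, 25.0, 173 and 103 in TNFR2- Tregs. *Cd74* over this sum was 7.20, 10.3, 11.4 and 6.90 in TNFR2+ Tregs, and 3.98, 9.13, 2.26 and 1.68 in TNFR2- Tregs. TNFR2- replicate 2, with the lowest sum, lay within the TNFR2+ range of this ratio, and the other 3 TNFR2- libraries lay below it.

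The whole B cell list gave another picture through the immunoglobulin heavy chain. Of its 27 genes, 20 were in the data, 11 were tested and 1, *Ighm*, passed, with 3433 to 5576 normalized counts in TNFR2+ libraries against 1583 to 2404 in TNFR2- libraries (log2 fold change 1.27, SE 0.17, limma, adjusted p = 7.45e-04). The sum of the list was 4545 to 6741 in TNFR2+ libraries and 2329 to 3749 in TNFR2- libraries. Without *Ighm*, *Ighd* and *Igkc* the sums were 918 to 1065 and 561 to 1093, which overlapped. *Cd22*, an inhibitory receptor of B cells singled out after its values were seen, had groups that were apart, 273 to 350 against 54.7 to 223 (log2 fold change 1.20, SE 0.36, limma, adjusted p = 0.0612). *Ighd* gave 1.37 (SE 0.56, limma, adjusted p = 0.162). *Cxcr5*, which follicular T cells also express, was the second most abundant of the list (314 to 499 and 154 to 454). The part of *Ighm* or of B cells in the *Cd74* difference was not tested.

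**Figure D4:**
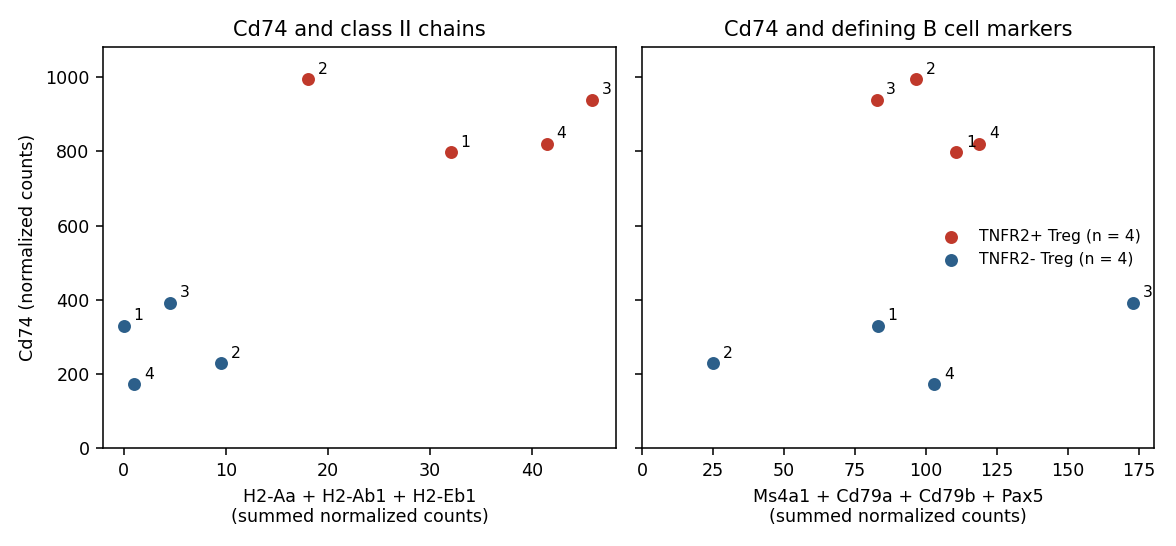
*Cd74* in normalized counts (vertical) against the summed normalized counts of *H2-Aa*, *H2-Ab1* and *H2-Eb1* (left) and of the defining B cell markers in the data (right), 1 point per library with its replicate number, red for TNFR2+ and blue for TNFR2- Tregs. On the left the TNFR2+ libraries are higher on both axes, while on the right the groups overlap along the horizontal axis and are apart in *Cd74*.

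Of 17 dendritic cell markers, 11 were in the data, 8 were tested, none rose and 1, *Xcr1*, fell in TNFR2+ Tregs (130 to 143 against 193 to 347, limma, adjusted p = 0.0498). It passed in 5 of 15 alternative fits. The sum of the list was 549 to 939 and 606 to 1138, with *Cst3* second in level (166 to 214 and 118 to 159). Of 20 macrophage and monocyte markers, 10 were in the data, 6 were tested and 1 rose, *Cybb*, a subunit of the phagocyte oxidase, 552 to 930 against 118 to 339 (log2 fold change 1.92, SE 0.31, limma, adjusted p = 0.00239). That list gave sums of 797 to 1218 and 322 to 565, mostly *Cybb* in the TNFR2+ libraries, and no sum without *Cybb* was taken. *Csf1r* was at 0 in each TNFR2+ library and in TNFR2- replicates 1 and 2, and *Spic*, second in level, had 34.6 to 68.2 against 71.6 to 154. The other tested markers of this list went both ways and did not pass. Log2 fold changes were 1.53 for *Hmox1*, 0.46 for *Vcam1*, -1.20 for *Itgam* and -0.22 for *Cd68*. Of 8 plasma cell markers, 6 were in the data, 4 were tested and *Prdm1*, which effector Tregs also express, rose (207 to 694 against 105 to 258, limma, adjusted p = 0.0210), although its groups overlapped and it passed in 8 of 15 alternative fits, and the list gave sums of 1700 to 2526 and 1289 to 1752, mostly *Xbp1* and *Irf4*.

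T cell and cytotoxic lists were read in the same way. Of 12 Treg and T cell markers, all were tested and *Ctla4*, *Ikzf2* and *Cd3e* rose in TNFR2+ Tregs. Its sum was 45318 to 50813 and 37246 to 44215. *Ikzf2* (8119 to 11556 against 3180 to 7270) and *Cd28* (3579 to 4512 against 4591 to 5106) were its most abundant genes. Of 11 CD8 T cell and NK cell markers, 8 were in the data, 4 were tested and *Nkg7* rose (49.2 to 92.3 against 2.03 to 18.4, limma, adjusted p = 0.00927), while *Cd8b1* had 32.9 to 64.2 and 20.3 to 70.9. The sums of that list were 148 to 236 and 113 to 170.

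Genes whose log2 values over the 8 libraries were most like the members were named as a description, among 10198 genes with a mean of at least 50. The libraries share the sort, so a gene that separates the groups will resemble any other that does. Most like the mean of *Cd74* and the 3 class II chains were *C2cd5* (Pearson r = 0.99), *Commd4*, *Grik5*, *Msl3* and *Urgcp* (each 0.98), and *Vcpkmt*, *B3gnt2* and *Smc2* (each 0.97), none of them an antigen presentation gene. In the same order, *H2-Oa* was at place 50, *Ctsb* at 99, *Ighm* at 157 and *Ms4a1* at 3696. Most like the mean of *B2m*, *H2-K1* and *H2-D1* were *Gm10925* (r = 0.98), *Stxbp4* (0.94), *Ly6e* (0.93), *Mrpl17* and *Ptpn23* (each 0.92), and *H2-Q7* stood at place 158. *Ly6e* is known as an interferon-induced gene.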

How the data were processed

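RNA of 8 libraries from sorted spleen Tregs was sequenced as stranded total RNA. Per the labels, the authors' processing notes name FastQC 0.11.8, Trim Galore, Salmon 1.3.0, DESeq2 1.28 in R 4.0, and GRCm38. The deposited values are a normalized signal per gene (normalized counts), not whole numbers, so no count model was run, as the main comparison or beside it. Low values (up to 12) lay within 0.1 of whole multiples of a library's step in 61.8% to 86.0% of values from genes with a single transcript and in 40.0% to 49.4% of those with several (20% by chance), and reads were not recovered.

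Symbols and positions came from GENCODE M21 (20008 of 20172 identifiers matched). Values were tested as log2(value + 1) in limma 3.58.1 (R 4.3.3; intensity trend, Benjamini-Hochberg over all genes tested, threshold 0.05, two-sided) where a gene's mean reached 10, and single values also by an exact permutation test over 70 relabellings. Near-identical transcripts (at least 95% identity over 50% of the length) were searched for with blastn 2.17.0, and none was found for any member. Promoter windows were RefSeq's. Genes named are the members and each called gene of a pathway list (otherwise its 3 most abundant per kilobase). The defining B cell markers, the called and 2 most abundant markers of each marker list, and the genes of like pattern are also named. *Ciita*, *H2-DMb2*, the RFX genes, *Foxp3*, *Cd4*, *Cd22*, *Ighd*, *Igkc*, *Bank1*, *Ebf1*, *Cd72*, *Blnk*, *Csf1r*, *Hmox1*, *Vcam1*, *Itgam* and *Cd68* were added. The places of *H2-Oa*, *Ctsb*, *Ighm*, *Ms4a1* and *H2-Q7* were added too. 1 tested gene of the regulator list is not reported here and is left out of the plot. The members and lists were chosen with earlier results of these data known. The procedure was tested on simulated data.

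Alternatives were other pseudocounts (0.5 and 5), filters (none and a mean of at least 50), variances without a trend, TMM factors, a replicate block and each library left out.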

Additional observations from a re-analysis of the deposited data

How the results depend on the processing

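*Cd74* had an adjusted p under 0.05 and the same direction in all 15 alternatives (limma; adjusted p between 2.13e-04 and 0.0220), and none of the class I members did in any of them. The class II count was 1 in 14 of the alternatives and 2 without a filter, where *H2-Aa* was added. Without a variance trend, 465 genes were called in place of 1107, and 1 regulator in place of 5. Leaving out a library gave 642 to 1301 genes: 722, 642 and 690 without TNFR2+ replicates 1, 2 and 3, and 707 without TNFR2- replicate 2. The class II chain and loading list then had 2 to 3 called genes in place of 4 (2 without TNFR2+ replicate 2, 3 or 4 or TNFR2- replicate 2 or 4). Regulators had 2 to 6 (3 without TNFR2+ replicate 2 or 3, 2 without TNFR2- replicate 2), and the class I lists 0 to 1 each, with 1 without TNFR2+ replicate 4 (class I-like heavy chains) and 1 without TNFR2- replicate 3 (peptide supply). The cause was not tested, beyond the smaller number of libraries.

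Same-numbered libraries did not deviate together (correlations of deviations between -0.04 and 0.00), so the numbers were not taken as pairs. With a replicate block, 1183 genes were called, *Cd74* gave 1.72 and no member's call changed. The *H2-Ab1* to *H2-K1* difference lay between 1.01 and 2.28 with other pseudocounts and between 1.39 and 2.57 with a library left out. Its paired exact test on 4 pairs cannot give a p under 0.125. With a library left out, the exact permutation p of this difference lay between 0.0571 and 0.314. Depth limits the 3 class II chains, which rest on at most an estimated 22 reads in a library.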
